A study of Mus musculus with 4 samples.

Results

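Bile acid synthesis and transport were followed through 10 genes, chosen by symbol among the 31253 features of spatial transcriptomes of mouse liver, and all 10 were found and passed the filter on low counts in every comparison. They are the classic pathway enzymes Cyp7a1 and Cyp8b1, the alternative pathway enzymes Cyp27a1 and Cyp7b1, the conjugating enzyme Baat, the uptake carriers Slc10a1, Slco1b2 and Slco1a1, the export pump Abcb11 and the repressor Nr0b2. The assay was 10x Visium, whose slides carry spots that each take up RNA from a small patch of tissue with several cells, and each molecule is counted once as a unique molecular identifier (UMI). The 4 sections formed 2 groups on a diet labelled WD, the model MAFL after 8 weeks (MAFL-1 and MAFL-2) and the model MASH after 16 weeks (MASH-1 and MASH-2), so model and weeks of diet changed together. No chow-fed liver, genotype, strain, sex or age is given in the labels used here, nor whether different animals gave the sections of 1 group. The p-values between groups thus measure only the spread between sections, which may be technical. Those for lobule zones, with the section as a block, measure the spread of zone differences over these same 4 sections.

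Hepatocytes make bile acids from cholesterol by a classic and an alternative route. In the classic route Cyp7a1 sets the rate with the first hydroxylation and Cyp8b1 adds the 12-alpha-hydroxyl group that leads to cholic acid, whereas the alternative route opens with the side-chain hydroxylase Cyp27a1 and goes on with the oxysterol hydroxylase Cyp7b1. Baat joins the products to taurine or glycine. Slc10a1, Slco1b2 and Slco1a1 draw bile acids back from the blood, and Abcb11 pumps them into the bile canaliculus. Bile acids that reach the nuclear receptor FXR (Nr1h4) induce Abcb11 and Nr0b2, and Nr0b2 in turn holds down Cyp7a1 and Cyp8b1. The liver lobule runs from the pericentral zone around the outgoing central vein, where Cyp7a1 is known to lie, to the periportal zone around the incoming vessels.

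The kept spots numbered 2036, 1881, 2467 and 1862 in MAFL-1 and MAFL-2 and then MASH-1 and MASH-2, the order of every series of 4 values below, and held 32249289, 38126800, 63808230 and 44581221 UMIs. Spots of each section were ranked by the log2 ratio of Cyp2f2, a periportal gene, to Cyp2e1, a pericentral gene, each with 1 UMI added, and split into 3 equal classes called the pericentral, midlobular and periportal zones. All 11 further periportal genes that the ranking did not use were higher at the periportal end (median log2 fold change 1.33), and all 11 further pericentral genes were lower there (median -2.21). The border between zones was not sharp, since 6.87% to 8.93% of spots lay within 0.1 of a border, and a score of 6 genes for each end put 83.2% to 89.0% of spots in the same zone. The summed hepatocyte markers stood between 76384 and 83898 counts per 1000000 UMIs (CPM), against 10.2 to 31.9 CPM for the cholangiocyte markers. Xist stood at 0.0930, 0.0787, 0.0313 and 0.0449 CPM, while the Y-linked Ddx3y, Eif2s3y, Kdm5d and Uty were counted in all 4 sections. A total of 993 spot barcodes occurred in all 4 sections, as they name positions that every slide shares.

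The promoters of 4 of these genes are shown first because they hold the motifs of receptors that read bile acids or drive these genes, and because Abcb11 and Slco1b2, which carry the same kind of motif, had different profiles across the lobule. Each sequence runs 5′ to 3′ from 250 bases before to 50 bases after the start site, as given by RefSeq for GRCm38.p6, the assembly also called mm10, and 7 of the 10 genes were matched (not Cyp7a1, Cyp7b1 and Baat). Capitals mark motif matches found by a search of both strands.
Cyp8b1: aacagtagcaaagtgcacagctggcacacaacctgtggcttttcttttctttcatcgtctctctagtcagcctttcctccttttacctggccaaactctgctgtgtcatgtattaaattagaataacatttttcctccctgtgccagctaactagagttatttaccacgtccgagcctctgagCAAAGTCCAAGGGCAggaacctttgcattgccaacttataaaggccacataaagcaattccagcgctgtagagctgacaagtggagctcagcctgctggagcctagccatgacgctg
Slco1b2: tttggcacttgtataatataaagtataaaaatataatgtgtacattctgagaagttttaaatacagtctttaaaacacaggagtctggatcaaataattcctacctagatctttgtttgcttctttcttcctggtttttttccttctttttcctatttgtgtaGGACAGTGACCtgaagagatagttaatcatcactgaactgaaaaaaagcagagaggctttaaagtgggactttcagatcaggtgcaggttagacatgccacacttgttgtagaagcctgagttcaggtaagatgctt
Abcb11: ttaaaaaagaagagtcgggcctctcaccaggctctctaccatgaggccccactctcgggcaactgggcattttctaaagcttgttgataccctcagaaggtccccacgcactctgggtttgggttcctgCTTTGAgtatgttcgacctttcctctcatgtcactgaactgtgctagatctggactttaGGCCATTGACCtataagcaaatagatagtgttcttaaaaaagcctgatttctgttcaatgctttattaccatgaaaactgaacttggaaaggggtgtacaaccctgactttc
Nr0b2: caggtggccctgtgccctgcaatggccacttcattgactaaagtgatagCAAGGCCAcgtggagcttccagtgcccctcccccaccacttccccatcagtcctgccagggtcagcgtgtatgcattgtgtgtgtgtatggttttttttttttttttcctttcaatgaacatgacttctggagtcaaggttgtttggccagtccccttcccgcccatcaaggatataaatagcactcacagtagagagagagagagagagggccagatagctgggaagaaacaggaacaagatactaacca
The Cyp8b1 promoter (chr9:121916256-121916555, minus strand) held the Hnf4a motif CAAAGTCCA at -67 to -59, counted from the start site with -1 as the base before it, and it overlapped the Nr5a2 (LRH-1) motif CAAGGNCA, matched as CAAGGGCA at -60 to -53. Slco1b2 (chr6:141629268-141629567, plus strand) held an FXR inverted repeat, GGNCA and TGNCC with 1 base between them, as GGACAGTGACC at -87 to -77. Abcb11 (chr2:69342567-69342866, minus strand) held the same inverted repeat as GGCCATTGACC at -62 to -52, and the TCF core CTTTGA at -121 to -116. Nr0b2 (chr4:133553126-133553425, plus strand) held the Nr5a2 motif as CAAGGCCA at -201 to -194. None of these 4 motifs was found in the windows of Cyp27a1, Slco1a1 or either listed start of Slc10a1. Among 32544 promoter windows of the same length, 0.682% held the inverted repeat, 6.68% the Nr5a2 motif, 0.479% the Hnf4a motif and 16.0% the TCF core. A match is a run of letters and no evidence that a factor binds there.

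Across the lobule the 10 genes ranged from high around the central vein to level. Of the 10, 7 were lower and 1 was higher in the periportal than in the pericentral zone (edgeR's quasi-likelihood test with the section as a block, adjusted p under 0.05), against 12.3% lower and 11.0% higher among all 12103 genes tested (23.3% in either direction). The median log2 fold change of the 10 was -0.63, beside 0.00 over all genes tested. Scaling by library totals alone changed the split of all calls from 1332 higher and 1487 lower to 919 and 1784. DESeq2 called 1682 genes (798 higher and 884 lower), the 7 among them. The median periportal spot held 15499, 22462, 33004.5 and 34028 UMIs against 15626, 18560, 22911 and 15751 pericentrally, so periportal spots were deeper in MAFL-2, MASH-1 and MASH-2 and close to the pericentral ones in MAFL-1. Ranking spots within 5 classes of depth kept all 7 lower genes past the test (log2 fold changes -0.15 to -1.26), while the call of Baat was lost (0.06, adjusted p = 0.287). Fewer cells of a type and less RNA per cell cannot be told apart in spots that hold several cells.

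In the classic pathway Cyp7a1 had the steepest fall of the 10 genes and Cyp8b1 a shallow one. Pericentral levels of Cyp7a1 were 24.3, 113, 153 and 127 CPM, and periportal levels were 7.07, 41.8, 63.2 and 37.6 CPM. Within every section the pericentral level was the higher, although the levels of MAFL-1 were below those of the other sections in both zones. The log2 fold change was -1.48 (SE 0.06, n = 4 sections, adjusted p = 1.98e-18, edgeR), and the 11 alternatives all passed. Cyp8b1 stood at 384, 423, 476 and 319.7 CPM pericentrally and at 319.4, 365, 308 and 215 CPM periportally. The fall was smaller than that of Cyp7a1 in each section (log2 ratios of CPM -0.27, -0.21, -0.63 and -0.57 against -1.78, -1.43, -1.28 and -1.76). Its log2 fold change was -0.39 (SE 0.07, adjusted p = 0.000465), with an adjusted p of 0.0856 when MASH-2 was left out.

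Both enzymes of the alternative pathway were pericentral as well. Cyp27a1, which acts in mitochondria, had 195, 204, 319 and 291 CPM pericentrally and 91.7, 112, 135 and 133 CPM periportally. Its log2 fold change of -1.06 (SE 0.07, adjusted p = 1.95e-08) passed in all 11 alternatives, and the section ratios were close to one another (-1.09, -0.87, -1.24 and -1.13). Cyp7b1 had 448, 205, 150.2 and 102 CPM pericentrally and 303, 129, 58.5 and 48.1 CPM periportally. The MAFL sections had the shallower gradients of Cyp7b1 (log2 ratios -0.56 and -0.67) and the MASH sections the steeper ones (-1.36 and -1.08). Over all 4 sections the log2 fold change was -0.87 (SE 0.15, adjusted p = 0.00599), with an adjusted p of 0.0557 when MASH-2 was left out.

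The 3 uptake carriers sloped the same way to different extents. Slco1b2, which carries mainly unconjugated bile acids, had 987, 1133.5, 1515 and 1167 CPM pericentrally and 366, 543, 684 and 501 CPM periportally, a log2 fold change of -1.19 (SE 0.06, adjusted p = 1.64e-14) that passed in all 11 alternatives. Slc10a1, the sodium-dependent carrier of conjugated bile acids, was nearly level, with 524, 639.6, 623 and 569 CPM pericentrally and 443, 571, 543 and 525 CPM periportally. Its log2 fold change of -0.15 (SE 0.05, adjusted p = 0.0146) was lost when MAFL-1 (0.16), MAFL-2 (0.129) or MASH-1 (0.125) was left out, and in the outer 20% of spots (0.0794). Slco1a1 had 315, 246, 274 and 118 CPM pericentrally and 216, 173, 155 and 31.8 CPM periportally. MASH-2 was the lowest section in both zones and had the steepest gradient (log2 ratio -1.89, against -0.54, -0.51 and -0.82). The log2 fold change of Slco1a1 was -0.86 (SE 0.20, adjusted p = 0.0223), and the adjusted p was 0.0684, 0.0708 and 0.145 without MAFL-1, MAFL-2 and MASH-1.

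The export pump, the repressor and the conjugating enzyme were close to level. Abcb11 stood at 161, 138, 160.2 and 159.9 CPM pericentrally and at 164, 152, 139 and 153 CPM periportally, with a log2 fold change of 0.00 (SE 0.05, adjusted p = 0.991). Its values at the 2 ends of the lobule overlapped. Nr0b2 stood at 21.0, 40.4, 63.4 and 33.3 CPM against 19.6, 34.4, 66.3 and 31.2 CPM (-0.04, SE 0.06, adjusted p = 0.699). The sections differed far more from one another in Nr0b2 than the zones did. Baat was 188, 167, 185 and 166 CPM pericentrally and 210.3, 183, 196 and 165 CPM periportally, so it was higher in 3 sections and level in MASH-2. The periportal rise of Baat (0.12, SE 0.04, adjusted p = 0.0319) was lost in 7 of 11 alternatives, among them DESeq2 (0.0728), library totals (0.121) and the fits without MAFL-1 (0.153) or MAFL-2 (0.107).

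**Figure D1:**
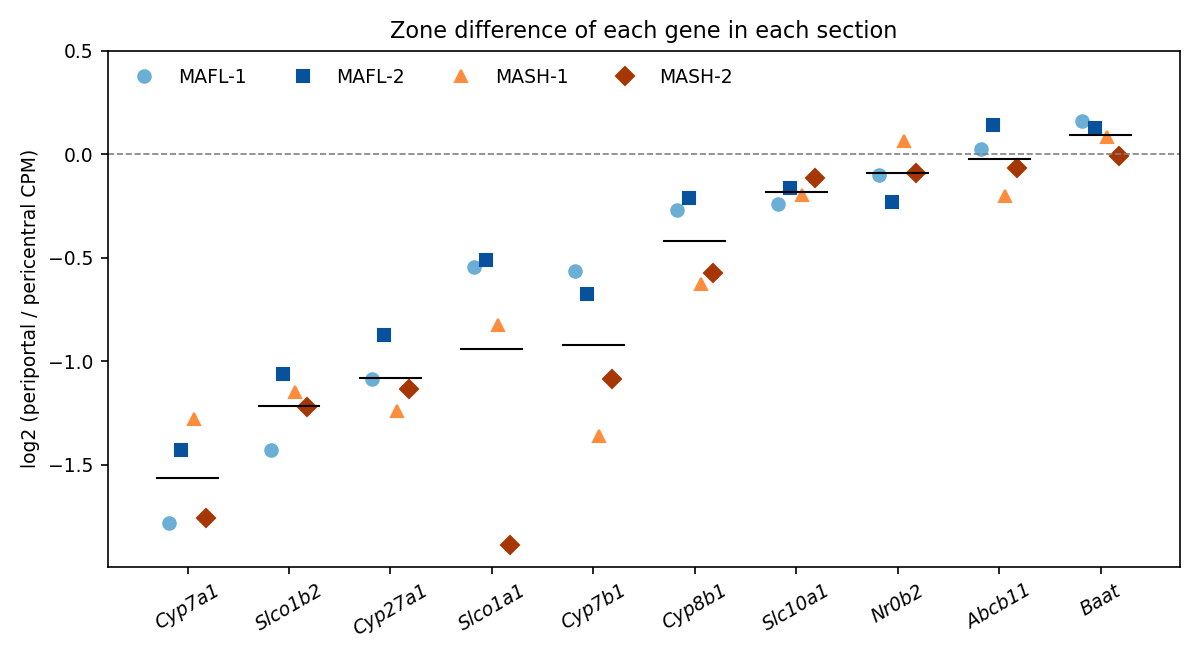
Log2 ratio of the periportal to the pericentral level (CPM, y axis) of each of the 10 genes (x axis, ordered by mean), with 1 point for each of 4 sections and a bar for their mean. All 4 sections lie below 0 for Cyp7a1, Slco1b2, Cyp27a1, Slco1a1, Cyp7b1, Cyp8b1 and Slc10a1, and points lie on both sides of 0 for Nr0b2, Abcb11 and Baat.

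Finer classes showed a slope through the middle of the lobule for the steep genes. With the spots of each section in 10 equal classes, Cyp7a1 was highest in the second class from the central vein in MAFL-1, MAFL-2 and MASH-2 (25.6, 118 and 137 CPM) and in the first in MASH-1 (158 CPM), and fell to 6.39, 33.6, 45.4 and 21.7 CPM in the last. Cyp27a1 was highest in the first class of every section. Cyp7a1 was also the only one of the 10 genes to pass the test of the midlobular level against the average of both ends on the log2 scale, and it was higher in the middle (0.32, SE 0.05, adjusted p = 0.00547, edgeR). Only 3 of 12103 genes (0.0248%) passed that comparison. The call of Cyp7a1 was lost with library totals (adjusted p = 0.17), without MASH-2 (0.132) and when spots were ranked within classes of depth (0.985).

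A mean position was computed for each gene as the centre of its CPM over the 10 classes, from 0 at the central to 1 at the portal end. Over the 4 sections it was 0.386 ± 0.0155 (SD) for Cyp7a1, 0.406 ± 0.0143 for Slco1b2, 0.415 ± 0.0094 for Cyp27a1, 0.428 ± 0.0241 for Cyp7b1 and 0.429 ± 0.0417 for Slco1a1. Cyp8b1 (0.466 ± 0.0152) and Slc10a1 (0.486 ± 0.0048) came next, followed by Nr0b2 at 0.492, Abcb11 at 0.498 and Baat at 0.508. The ranges of neighbours in that order overlapped over the sections throughout. Among 4161 genes with at least 20 CPM the median position was 0.497 and the 10th to 90th percentile ran from 0.478 to 0.514, so the 6 most pericentral members lay outside that range and the other 4 inside it. For scale, the pericentral gene Glul stood at 0.336 and the periportal gene Hal at 0.606.

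**Figure D2:**
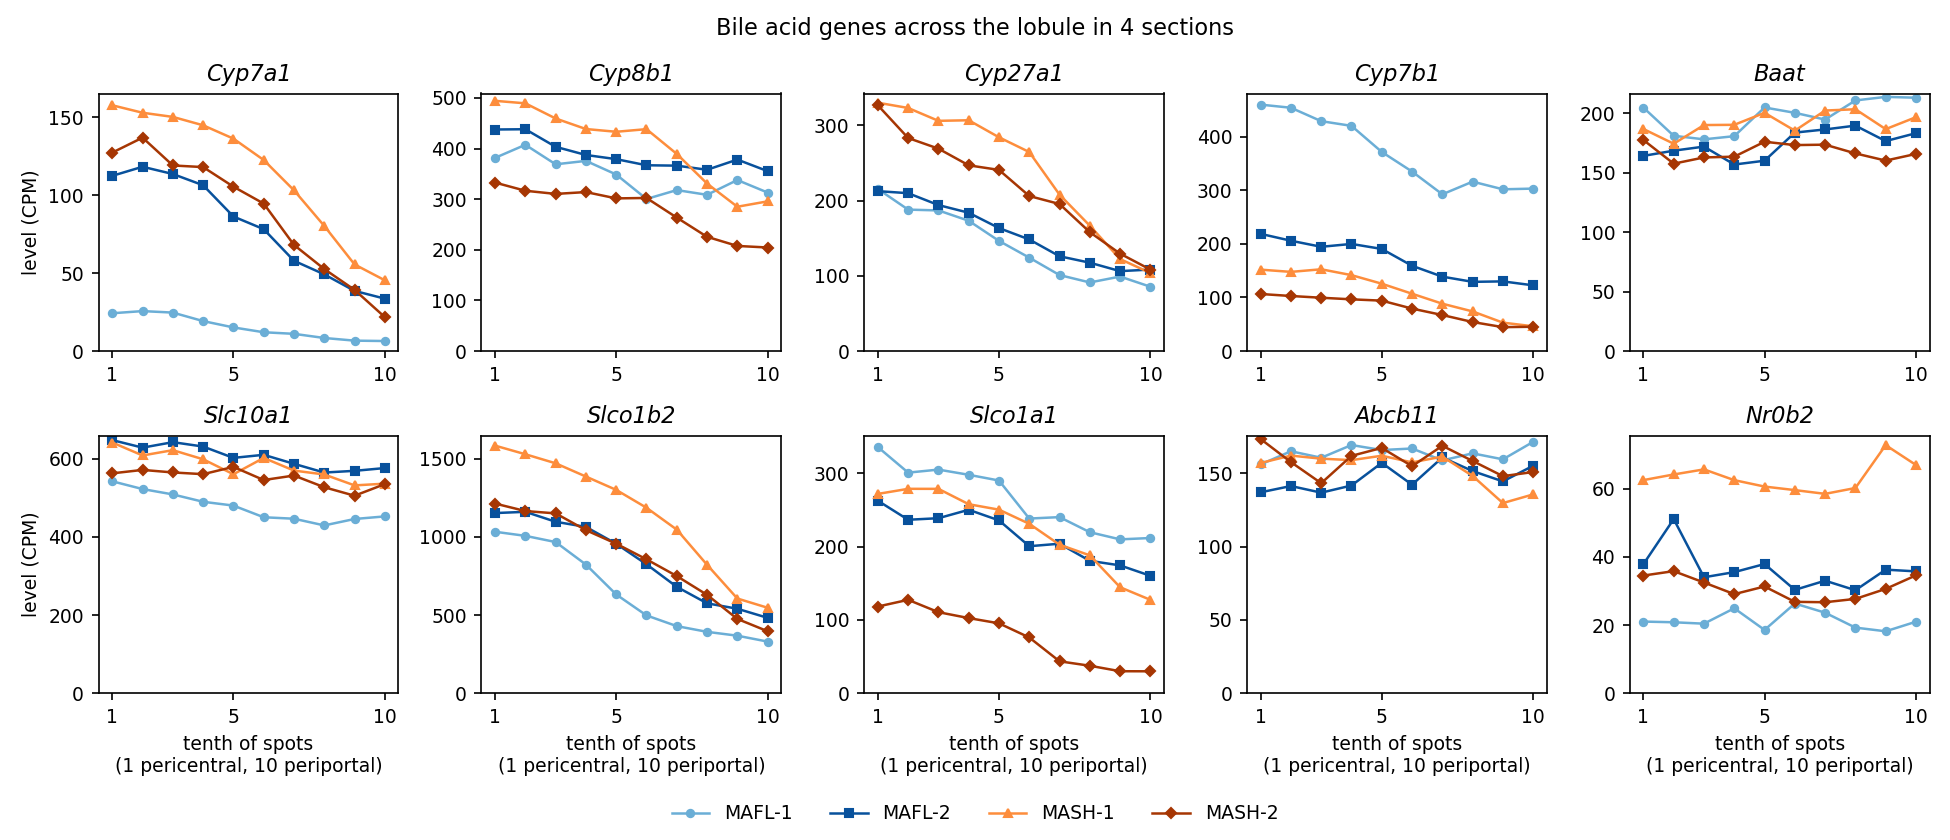
Level (CPM, y axis from 0) of each of the 10 genes in 10 equal classes of spots from the pericentral end (1) to the periportal end (10), with 1 line for each section. Cyp7a1, Slco1b2, Cyp27a1, Cyp7b1 and Slco1a1 slope down in every section, while Abcb11, Baat and Nr0b2 stay near 1 level within a section.

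Genes with profiles most like those of Cyp7a1, Cyp7b1 and Abcb11 were ranked among 3968 genes by the Pearson correlation of log2(CPM + 1), centred within each section, over 40 points (10 classes of 4 sections). These points share their libraries, so the correlations are descriptions. Cyp2f2, Cyp2e1, predicted genes and Mup, ribosomal, mitochondrial and haemoglobin genes were left out of the ranking. Rgn, which encodes regucalcin, came closest to Cyp7a1 (0.988), followed by the nuclear receptor gene Nr1i3 (0.984), the cytochrome genes Cyp2c54 (0.983) and Cyp2c50 (0.983) and Csad, an enzyme of taurine synthesis (0.982). Slco1b2 stood at rank 6 (0.981) and Cyp27a1 stood at rank 24 (0.960). The nearest to Cyp7b1 were Hsd17b11 (0.976), Ang (0.975), Cyp2d9 (0.974), the acyltransferase Agpat2 (0.973) and Por, the electron donor of microsomal cytochromes P450 (0.972). For Abcb11 the very-long-chain acyl-CoA synthetase Slc27a2 reached 0.800, and G0s2, Gcdh, Asgr1 and Pgrmc1 followed at 0.643 to 0.598. A level profile leaves little slope to correlate once it is centred. These lower values therefore cannot show whether other genes share the level profile of Abcb11.

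Other genes of the pathway were mixed in their zones. The counts below stand beside 11.0% higher and 12.3% lower among all 12103 genes tested. Of 14 other transport genes tested, 2 were higher and 9 lower periportally. The organic anion carrier Slc22a7 (log2 fold change 1.22, adjusted p = 3.4e-10) and Slc10a2, the bile acid carrier of ileum and bile ducts (0.88, 8.2e-09), were the higher ones, and the sterol exporter gene Abcg8 (-0.50, 6.47e-10) and Abcc2, the canalicular conjugate pump (-0.41, 2.18e-09), were among the lower ones. The 5 cholangiocyte markers were all higher periportally too, with sums of 7.83, 6.35, 4.16 and 18.8 CPM pericentrally and 18.4, 16.6, 17.6 and 41.0 CPM periportally, and their part in the level of Slc10a2 was not tested. Of 12 genes of side chain and ring steps, 1 was higher (Cyp39a1, the hydroxylase of 24-hydroxycholesterol, 1.28, 1e-13) and 1 lower (the peroxisomal thiolase Acaa1b, -0.48, 1.15e-09). These calls were no more than the share over all genes (23.3% in either direction). Of 17 regulators, 2 were higher, with the FGF receptor Fgfr4 at 0.39 (0.000203), and 5 lower, with the receptors Nr1i3 at -0.94 (1.15e-17) and Ppara at -0.67 (0.00386) and the small Maf factor Mafg at -0.19 (0.00918). Ppara was lower periportally in MAFL-1, MASH-1 and MASH-2 (log2 ratios of CPM -0.54, -0.66 and -1.20) and higher in MAFL-2 (0.13). Of 6 genes of sulfation and glucuronidation, 4 were lower, namely the glucuronosyltransferases Ugt2b1 (-0.72, 2.25e-14) and Ugt2b36 (-0.15, 0.0172), the sulfotransferase Sult2a8 (-0.95, 0.0101) and Papss2, which makes the sulfate donor (-0.23, 0.000258). Without MASH-1 the calls of Ppara (adjusted p = 0.0609), Sult2a8 (0.0878) and Ugt2b36 (0.162) were lost, that of Mafg without MASH-2 (0.111), those of Sult2a8 (0.0531) and Ugt2b36 (0.122) without MAFL-1 and that of Ugt2b36 without MAFL-2 (0.202).

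Between MASH and MAFL liver none of the 10 genes passed the test over whole sections. In edgeR 62 of 13593 genes (0.456%) passed an adjusted p of 0.05, of the 10 genes 1 had an unadjusted p under 0.05 (19.2% of all genes did), and DESeq2, which called 627 genes, called 1 of the 10. That gene was Cyp7b1, with 369 and 166 CPM in the MAFL and 103 and 71.0 CPM in the MASH sections. The groups did not overlap, and MAFL-1 was far above the other sections. With 2 sections in each group values often separate by chance, and the share of all genes without overlap was not counted. Here and below, no overlap is therefore only a description. The log2 fold change of Cyp7b1 was -1.70 (SE 0.43, unadjusted p = 0.0104, adjusted p = 0.156), and the adjusted p ranged from 0.000226 in DESeq2 to 0.403 over 10 alternatives. It was 0.0259 without MAFL-2, where the log2 fold change was -2.15, and the value was -1.06 without MAFL-1.

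Its partner in the alternative pathway had values in the opposite direction. Cyp27a1 stood at 142 and 154 CPM in MAFL and at 229 and 195 CPM in MASH, also with no overlap between groups (log2 fold change 0.42, SE 0.19, adjusted p = 0.276). In the classic pathway Cyp7a1 stood at 15.3 and 76.8 CPM in MAFL and at 109 and 74.7 CPM in MASH. MAFL-1 lay far below every other section, and MAFL-2 lay within the range of MASH. The log2 fold change of 0.88 (SE 0.89, adjusted p = 0.646) therefore rested on MAFL-1, being 0.13 without it and 2.51 without MAFL-2 (adjusted p = 0.0288). Cyp8b1 had 347 and 386 CPM in MAFL and 394 and 262 CPM in MASH (-0.25, SE 0.25, adjusted p = 0.624).

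The transporters, Baat and Nr0b2 overlapped between the groups. Slc10a1 ran from 477 to 604 CPM in MAFL and from 545 to 578 CPM in MASH (log2 fold change -0.05, SE 0.21, adjusted p = 0.916), Slco1b2 from 650.4 to 832 CPM and from 767 to 1091 CPM (0.23, SE 0.26, adjusted p = 0.66). Slco1a1 had 265 and 212 CPM in MAFL and 215 and 65.6 CPM in MASH, so MASH-1 was level with MAFL and MASH-2 was low. Its log2 fold change of -0.83 (SE 0.65, adjusted p = 0.549) was -2.04 without MASH-1 (adjusted p = 0.0136) and -0.19 without MASH-2. Abcb11 varied least of the 10 genes, between 147 and 163 CPM over all 4 sections (-0.11, SE 0.16, adjusted p = 0.738). Nr0b2 stood at 21.4 and 36.1 CPM in MAFL and at 63.7 and 31.1 CPM in MASH (0.63, SE 0.50, adjusted p = 0.545), and Baat between 167 and 198 CPM (-0.15, SE 0.18, adjusted p = 0.687).

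**Figure D3:**
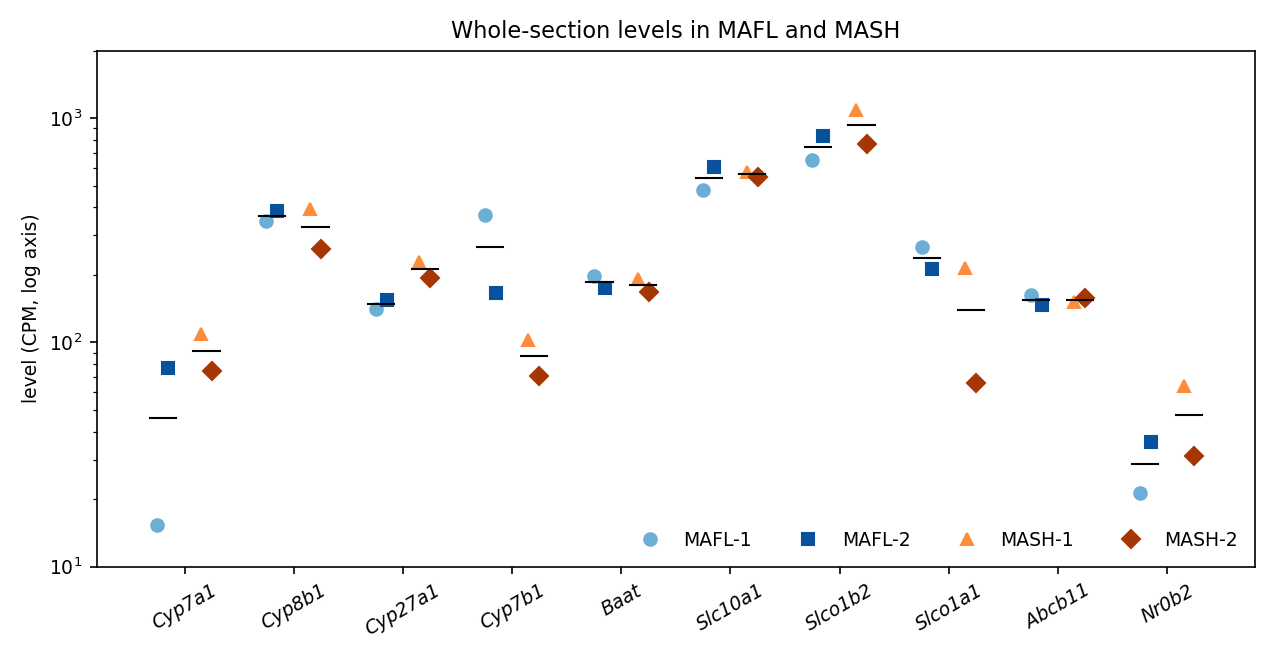
Level over whole sections (CPM, log axis) of each of the 10 genes, with 1 point for each section and a bar for the mean of each group of 2 sections. The groups do not overlap for Cyp27a1 and Cyp7b1 and overlap for the other 8 genes, and MAFL-1 is the low point of Cyp7a1 and MASH-2 that of Slco1a1. The share of all genes without overlap was not counted.

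Other gene lists give the setting of these group values. No gene passed among the other bile acid genes tested over whole sections, which were 13 of side chain and ring steps, 15 of transport, 17 regulators and 6 of sulfation and glucuronidation. The genes of smallest p in these lists were Hsd17b4, a peroxisomal enzyme of the side chain (0.18, adjusted p = 0.616), the phospholipid flippase Atp8b1 (-0.39, 0.215), the factor Foxa2 (-0.91, 0.0985, and 0.011 in DESeq2) and Ugt1a1 (0.62, 0.341). Cyp7b1 and Slco1a1 are known to be higher in male than in female mouse liver, so 12 other male-biased liver genes were set beside them. None of the 12 passed in edgeR, all 12 had negative values (median log2 fold change -0.91, against 0.01 over all genes), with Cyp2u1 at -0.83 (adjusted p = 0.0781) and the complement gene C6 at -0.96 (0.0985), both past the test in DESeq2. Their summed level was 39282 and 25648 CPM in MAFL and 24949 and 29044 CPM in MASH. The 10 listed female-biased genes summed to only 7.63 and 9.28 CPM in MAFL and to 6.90 and 21.0 CPM in MASH. Of 4 female-biased genes tested, 3 had positive values that did not pass, namely Cyp2b9 (4.88, adjusted p = 0.154), Cyp2a4 (3.03, 0.252) and Cyp17a1 (1.21, 0.278). Each of these 3 was highest in MASH-2. Cyp2b9 and Cyp2a4 had few UMIs outside MASH-2, so their large values rest on low counts. The other, Cyp2c40, was lower in MASH (-2.12, adjusted p = 0.0406), a call that was lost without MAFL-1 (0.107), MAFL-2 (0.0896) or MASH-2 (0.0927). Of 13 circadian genes none passed (Arntl -1.02, adjusted p = 0.138).

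The summed markers of hepatocytes, macrophages, endothelial cells, stellate cells with fibroblasts, and T and B cells did not overlap between the groups. All of them stood above in MASH, while those of cholangiocytes overlapped. Hepatocyte markers summed to 76384 and 77801 CPM in MAFL and to 80467 and 83898 CPM in MASH. Of the 5 hepatocyte markers, 4 had negative log2 fold changes. Endothelial markers summed to 124 and 121 CPM and to 141 and 142 CPM. T and B cell markers summed to 5.89 and 6.82 CPM and to 8.51 and 23.1 CPM. The 5 macrophage markers all had positive values, and Lyz2 was called (log2 fold change 1.85, adjusted p = 0.00863). The macrophage markers summed to 193 and 239.9 CPM in MAFL and to 468 and 498 CPM in MASH, the 5 stellate and fibroblast markers to 183 and 172 CPM and to 291 and 455 CPM, and the cholangiocyte markers to 13.8 and 11.1 CPM and to 10.2 and 31.9 CPM. No marker of these lists was at 0 in any section. The 11 held-out pericentral genes summed to 1086 and 1674 CPM in MAFL and to 2222 and 1382 CPM in MASH, and MAFL-1, the lowest of them, was also lowest in Cyp7a1 and Slco1b2. The part of these levels in the values of the 10 genes was not tested.

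Within single zones none of the 10 genes passed between the groups either. Zones were ranks within a section, so the same zone need not be the same region in each section. The median zone score was -3.18 in the pericentral zone of MAFL-1 and -3.62 in the midlobular zone of MASH-1. The held-out pericentral genes summed to 816, 1580, 2490 and 1490 CPM in the midlobular zone. The part of this in the values below was not tested. The background was 0.636% of 11800 genes in the pericentral, 0.520% of 11912 in the midlobular and 1.28% of 12478 in the periportal zone. In edgeR Cyp7b1 and Cyp27a1 had an unadjusted p under 0.05 in the pericentral and midlobular zones and Cyp7b1 alone in the periportal zone, against 17.6%, 16.3% and 17.6% of all genes. The log2 fold change of Cyp7b1 was -1.48 (adjusted p = 0.202) pericentrally, -1.45 (0.181) in the middle and -2.08 (SE 0.43, 0.117) periportally. In the periportal zone it passed in DESeq2 (1.65e-07), without MAFL-1 (-1.38, 0.00443), without MAFL-2 (-2.56, 8.97e-06) and when the replicate number was a block (0.0342), and in the midlobular zone in DESeq2 (0.00148). Cyp27a1 had 0.49, 0.66 and 0.32 in the same order of zones (adjusted p = 0.242, 0.199 and 0.386), with groups that did not overlap in any zone. Cyp7a1 did not overlap in the pericentral and midlobular zones (24.3 and 113 CPM in MAFL against 153 and 127 CPM in MASH pericentrally) and did in the periportal zone. Slco1b2 likewise did not overlap in the pericentral and midlobular zones, where both MASH sections stood above both MAFL sections, nor did Slco1a1 in the periportal zone, where both MASH sections stood below (216 and 173 CPM against 155 and 31.8 CPM). Cyp8b1 overlapped between the groups except in the periportal zone, where 319.4 and 365 CPM in MAFL stood above 308 and 215 CPM in MASH (-0.46, adjusted p = 0.314). Leaving out MAFL-2 brought Cyp7a1 past the test in each zone (log2 fold changes 2.42, 2.86 and 2.78), and leaving out MASH-1 did so for Slco1a1 (-1.50, -1.78 and -2.71).

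The zone difference itself changed between the groups for 1 of the 10 genes, Cyp7b1, against 0.533% of 12575 genes. Its gradient was steeper in MASH by 0.56 on the log2 scale (interaction -0.56, SE 0.10, adjusted p = 0.00275, and 0.00574 in DESeq2). The adjusted p was 0.408 without MAFL-1 and 0.403 without MAFL-2, at interactions of -0.51 and -0.61, and the interaction was -0.32 without MASH-1. Cyp8b1 also had separate gradients (-0.27 and -0.21 in MAFL, -0.63 and -0.57 in MASH), and its interaction of -0.30 (SE 0.09, adjusted p = 0.138) passed with library totals (0.000456) and without MASH-2 (-0.41, 1.99e-05). Slco1a1 had -0.69 (SE 0.30, adjusted p = 0.654), and passed without MASH-1 (-1.21, 2.11e-18) or MASH-2 (-0.32, 0.0047). Cyp27a1 (-0.28, 0.0307) and Abcb11 (-0.31, 0.012) passed without MASH-2, and Slc10a1 (0.23, 0.0124) without MASH-1.

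Zone genes at large also lay further apart in MASH. All 11 held-out pericentral genes had negative interactions (median -0.63, 1 called) and all 11 held-out periportal genes positive ones (median 0.28, 3 called). Depth moved with it, since the ratio of periportal to pericentral depth was larger in the MASH sections by the medians given above. The part of these shifts in the interaction of Cyp7b1 was not tested. Among the other transport genes the phospholipid exporter Abcb4 had an interaction of -0.43 (adjusted p = 0.00695), lost without MAFL-1 (0.237) or MAFL-2 (0.864). Among the male-biased genes Serpina1e (1.13, 1.15e-10), Selenbp2 (0.62, 1.14e-05) and Cyp2d9 (-0.49, 0.0121) passed, the last of them toward a steeper pericentral slope like that of Cyp7b1. The call of Selenbp2 was lost without MAFL-2 (0.16), and that of Cyp2d9 when any 1 section was left out (0.426 to 0.841).

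The balance of the classic against the alternative pathway was described by the log2 ratio of summed UMIs, Cyp7a1 and Cyp8b1 over Cyp27a1 and Cyp7b1. Counts of different genes are not on 1 scale per transcript, so only differences in a ratio between samples or zones are read, and no test was made. Over whole sections the ratio was -0.50 and 0.53 in MAFL and 0.60 and 0.34 in MASH, so MAFL-1 stood apart and MAFL-2 lay among the MASH sections. The group means differed by 0.45 (0.02 ± 0.73 in MAFL, 0.47 ± 0.18 in MASH, SD, n = 2 each), less than the SD within MAFL, and by -0.06 without MAFL-1. The pairs of enzymes went in opposite directions. Cyp7a1 over Cyp7b1 was -4.59 and -1.11 in MAFL and 0.08 and 0.07 in MASH, a difference of 2.93 with no overlap, and Cyp8b1 over Cyp27a1 was 1.29 and 1.32 in MAFL and 0.78 and 0.43 in MASH, a difference of -0.70 with no overlap.

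From the pericentral to the periportal zone the classic over alternative ratio rose in each section, by 0.38, 0.37, 0.51 and 0.30 (mean 0.39 ± 0.09, SD, n = 4). Again the pairs differed, because Cyp7a1 over Cyp7b1 changed by -1.22, -0.76, 0.08 and -0.67 and Cyp8b1 over Cyp27a1 by 0.82, 0.66, 0.61 and 0.56. With each gene given equal weight, as the mean of log2 CPM, the zone difference of the ratio was 0.01 ± 0.23. Cyp8b1 held the larger number of UMIs of the classic pair in every section, so it weighed most in the summed ratio.

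Uptake over export, the log2 ratio of Slc10a1, Slco1b2 and Slco1a1 together to Abcb11, was 3.09 and 3.49 in MAFL and 3.64 and 3.13 in MASH. The group means differed by 0.10, below the SD of either group (0.28 and 0.36), and by -0.20 when the carriers had equal weight. Across the lobule the ratio fell in every section, by 0.86, 0.79, 0.60 and 0.74 from the pericentral to the periportal zone (mean -0.75 ± 0.11, SD, n = 4). Without Slco1a1 the mean was -0.76 ± 0.14, whereas Slc10a1 alone over Abcb11 gave -0.27, -0.30, 0.00 and -0.05.

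**Figure D4:**
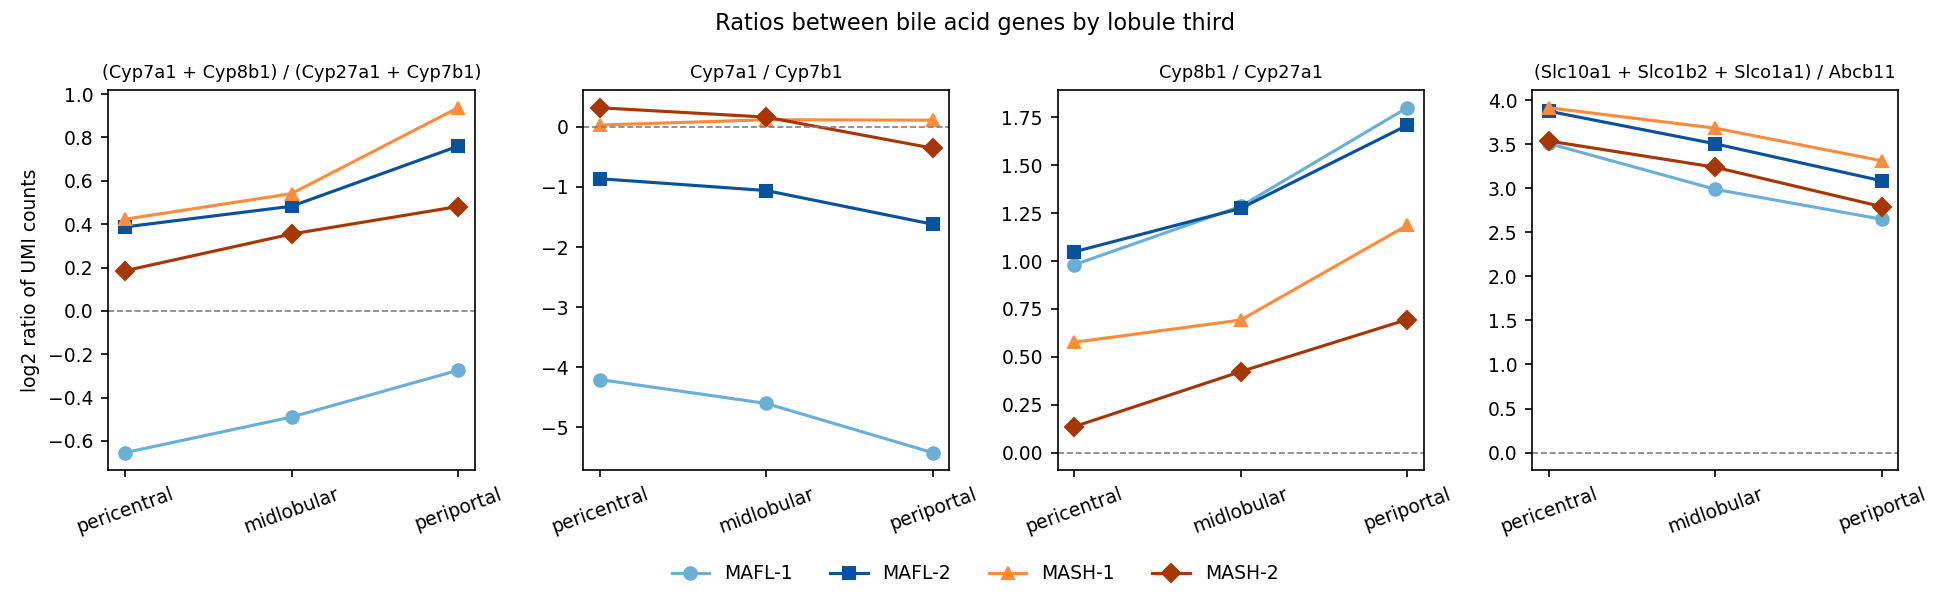
Log2 ratios of UMI counts (y axis) in the pericentral, midlobular and periportal zones, with 1 line for each section, for the classic over the alternative pathway, Cyp7a1 over Cyp7b1, Cyp8b1 over Cyp27a1, and uptake over export. The first and the third ratio rise toward the portal end in all 4 sections and uptake over export falls, while MAFL-1 is the lowest line of Cyp7a1 over Cyp7b1 in every zone.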

How the data were processed

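The deposited matrices hold counts, whole numbers of UMIs per gene and spot, which the authors made on mm10 (per the submitters' processing notes); the file headers name Space Ranger 1.2.2. Spots under 500 UMIs were left out (3 in MAFL-1, 3 in MASH-1). Counts were summed per section or per zone of a section, as CPM for levels. The sums were fitted with edgeR 4.0.16 in R 4.3.3 (TMM, filterByExpr, robust quasi-likelihood, Benjamini-Hochberg over all genes tested). Zone comparisons had the section as a block and left out Cyp2f2 and Cyp2e1, which set the zones. DESeq2 1.42.0, other size factors, no filter, another zone score, other zone widths, ranking within classes of depth, blocks by replicate number and leaving out 1 section were the alternatives. The fits were also run on simulated counts, drawn with the spread that the fits themselves had estimated. Such a run cannot show whether that spread holds for these sections.

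At a depth of 32249289 to 63808230 UMIs per section, counting error is small for genes of high level and larger for genes of low level. Replicate sections differed far beyond it (chi-square per degree of freedom 67.7 for MAFL and 116 for MASH). Whether the replicate numbers pair sections was not settled. The 10 genes, the 18 other lists (166 symbols with the 10, all found) and the tests were chosen with earlier results of these data known, and the motifs after the sequences were seen. Values are named for the 10 genes in every comparison, for up to 4 genes of smallest p of a list, and for the 5 genes most like Cyp7a1, Cyp7b1 and Abcb11. Glul, Hal and Lyz2 were named beside them for scale. Python 3.11.15 with numpy 2.4.6, scipy 1.17.1, pandas 2.3.3 and matplotlib 3.10.9 did the rest. Spot positions were not used here.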

Additional observations from a re-analysis of the deposited data

Results flagged for a closer look

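Cyp7b1 had a steeper fall from the pericentral to the periportal zone in MASH than in MAFL (interaction -0.56 on the log2 scale), which drew attention as a tested difference between the groups. Among 15 other transport genes and 12 male-biased genes tested, the same test picked out 4, against 0.533% of all 12575 genes. These were Abcb4 (-0.43), Cyp2d9 (-0.49), Selenbp2 (0.62) and Serpina1e (1.13), of which the last 3 are male-biased liver genes. The calls of Cyp7b1, Abcb4, Cyp2d9 and Selenbp2 depended on the section left out, as given above.

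Values of opposite sign in the 2 groups occurred in 3 members. Both the periportal to pericentral ratio and the midlobular level over both ends were searched in every member. With 2 sections in each group such splits of sign can arise by chance, and their share among all genes was not counted. They are therefore only descriptions. Abcb11 was slightly higher periportally in both MAFL sections and slightly lower in both MASH sections (MASH minus MAFL -0.22, log2 ratio of CPM). That difference did not pass as an interaction (-0.15, adjusted p = 0.677, edgeR). The midlobular level of Cyp8b1 stood below the average of both ends in MAFL (-0.06 and -0.07) and above it in MASH (0.17 and 0.17), a difference of 0.24, and that of Baat likewise by 0.051. For these 2 genes the difference of the midlobular levels between the groups was not tested. Held-out pericentral genes stood higher in the middle in MASH too. Glul had -0.43 and 0.03 in MAFL against 0.54 and 0.08 in MASH, and Oat -0.32 and 0.00 against 0.48 and 0.35. Rnf43 of the same list overlapped between the groups.

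In 2 genes 1 of the 4 sections lay far from the others. The midlobular level of Nr0b2 over the average of both ends was 0.21 in MAFL-1 against -0.14, -0.10 and -0.16 elsewhere, with 244 UMIs of Nr0b2 in that zone of MAFL-1. The periportal to pericentral ratio of Ugt2b36 was -0.085 in MASH-2 against -0.20 to -0.22. Chance marks about 1 in 20 groups of 4 values in this way.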

How the results depend on the processing

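Of 890 values of single genes under alternatives (96 results), 765 kept their direction and their side of the threshold, 34 came to pass, 44 ceased to pass and 47 changed sign, the last of these all for values that did not pass. Of 93 alternatives for counts of called genes and for ratios, 49 stayed close to the reported value. DESeq2 called 627 genes over whole sections, 278 in the pericentral, 249 in the midlobular and 341 in the periportal zone, and 1682 between the ends of the lobule. Without a filter on low counts 1153 genes passed over whole sections and 49 in the midlobular comparison, which had 6 with the score of 6 genes for each end and 0 when spots were ranked within classes of depth (478 at an unadjusted p under 0.05, and 3 in DESeq2). With the score of 6 genes for each end the periportal count between the groups was 103. Library totals moved the median log2 fold change of all genes over whole sections from 0.01 to 0.11.

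Whether sections of the same number pair was not settled. The correlation of deviations was -0.19 for MAFL-1 with MASH-1 and 0.19 for MAFL-1 with MASH-2. With 2 sections in each group the second value mirrors the first, so they cannot decide whether the numbers mark a batch. With the replicate number as a block 0 genes passed over whole sections (1900 at an unadjusted p under 0.05), 60 in the pericentral, 19 in the midlobular and 71 in the periportal zone, and Slc10a1 in the periportal zone turned to 0.012. The crossed replicate block, MAFL-1 with MASH-2, was chosen after seeing the data and gave 779, 415, 800 and 1273 genes and 0.012 for Slc10a1. The call of Cyp7b1 in the periportal zone was the one change of a member's call with the replicate block.

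Leaving out 1 section at a time gave 20 to 535 called genes over whole sections, 23 to 1932 in the pericentral, 18 to 438 in the midlobular and 100 to 715 in the periportal zone, 1 to 11 in the midlobular comparison and 7 to 453 for the interaction. In these fits the lone section of a group is assumed to vary like the other group. The sign of the following log2 values depended on the section left out, given as lowest to highest. Over whole sections these were Cyp8b1 -0.67 to 0.064, Baat -0.34 to 0.0032, Slc10a1 -0.24 to 0.16, Slco1b2 -0.14 to 0.51 and Nr0b2 -0.076 to 1.10. In the pericentral zone they were Cyp8b1 -0.58 to 0.19, Baat -0.34 to 0.017, Slc10a1 -0.28 to 0.074, Slco1b2 -0.11 to 0.47, Abcb11 -0.14 to 0.062 and Nr0b2 -0.13 to 1.12, in the midlobular zone Cyp8b1 -0.45 to 0.27, Baat -0.29 to 0.058, Slc10a1 -0.21 to 0.23 and Nr0b2 -0.18 to 1.06, and in the periportal zone Slc10a1 -0.21 to 0.21. Between the ends of the lobule they were Abcb11 -0.035 to 0.088 and Nr0b2 -0.081 to 0.029, in the midlobular comparison Cyp8b1 -0.016 to 0.077 and Baat -0.020 to 0.0072, and for the interaction Cyp7a1 -0.11 to 0.34, Slc10a1 -0.016 to 0.23 and Slco1b2 -0.071 to 0.31.

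Other settings turned values near 0. Library totals gave 0.055 for Slc10a1 over whole sections, -0.038 for Abcb11 between the ends and 0.012 for Baat in the midlobular comparison. The outer 20% of spots gave -0.018 for Abcb11 and 0.0047 for Baat, and ranking within classes of depth -0.049 for Abcb11, 0.0070 for Baat and -0.024 for Cyp8b1. The score of 6 genes for each end gave 0.020 for Baat and 0.012 for Slc10a1 in the midlobular comparison and 0.0028 for Cyp8b1 between the groups in the midlobular zone. The classic over alternative ratio between the groups was 1.11 with genes weighted equally, 2.93 for Cyp7a1 over Cyp7b1 and -0.70 for Cyp8b1 over Cyp27a1, and across the lobule 0.010, -0.64 and 0.66, while Slc10a1 alone over Abcb11 gave -0.15. Uptake over export across the lobule stayed close to its reported value with the carriers weighted equally (-0.75) and without Slco1a1 (-0.76). The classic over alternative ratio depended on the choice of genes, as did uptake over export with Slc10a1 alone. The cause of the other changes was not tested.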
